A study of Mus musculus with 10 samples.

Results

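The genes described here are the transcription factor NRF2 (gene Nfe2l2), its inhibitor KEAP1 (Keap1) and 8 genes known as NRF2 targets, namely Nqo1, Gclc, Gclm, Srxn1, Txnrd1, Gsr, Osgin1 and Prdx1. They were taken by gene symbol from the platform annotation, which listed 18 probes for 9 of the 10 genes. Gsr was not analysed here. Of the 18 probes, 14 were detected on enough arrays to be kept, among 16803 kept probes of 9725 genes on an array of 45281 probes. All 9 annotated genes had at least 1 kept probe. RNA from the livers of 10 mice of the inbred FVB strain had been hybridised to Illumina bead arrays, which report the brightness of each probe. By the labels, 6 mice received a wild-type LKB1 plasmid through the tail vein, once weekly for 8 weeks, to overexpress LKB1 (LKB1 livers). The other 4 mice carry the label untreated. An effect of the injections or of plasmid DNA therefore cannot be told apart from an effect of LKB1. The labels name no promoter for the plasmid, no age of the mice, and hepatocytes as source with liver as tissue. LKB1, encoded by Stk11, is a kinase that activates AMPK.

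NRF2 is a transcription factor that turns on genes for glutathione and thioredoxin chemistry and for detoxification when a cell meets oxidants or electrophiles. In resting cells KEAP1 hands NRF2 to a CUL3 ubiquitin ligase, so that NRF2 protein is short-lived. Oxidants modify cysteines of KEAP1, NRF2 then accumulates, pairs with small MAF proteins and binds antioxidant response elements near its targets. This control acts on the NRF2 protein, which an array of transcripts does not measure. In liver the targets are known for protection from drug-derived electrophiles.

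The promoter windows of the members were searched for the core of that element, because it is the sequence through which NRF2 is known to act. RefSeq windows of build GRCm38.p6, from 250 bases before to 50 bases after a start site, were found for 8 member genes in 10 windows. The searched core was TGACNNNGC on either strand. It was present in 5 of the 10 windows, 1 each of Nfe2l2, Gclm, Prdx1, Srxn1 and Txnrd1, and in 12.4% of all 32851 windows. The matches are printed 5′ to 3′ on the strand of the gene with the core in capitals. In Nfe2l2 the core lies on that strand, and in the other genes the capitals are its reverse complement.
Nfe2l2, chr2:75704885-75704913, minus strand: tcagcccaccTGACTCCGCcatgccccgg
Gclm, chr3:122245413-122245441, plus strand: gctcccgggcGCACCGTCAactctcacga
Prdx1, chr4:116685456-116685484, plus strand: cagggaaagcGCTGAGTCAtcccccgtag
Srxn1, chr2:152105542-152105570, plus strand: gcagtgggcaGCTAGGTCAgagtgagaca
Txnrd1, chr10:82859104-82859132, plus strand: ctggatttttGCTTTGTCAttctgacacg
The Prdx1 match is the stricter form TGACTCAGC, which 0.454% of all windows held, and it overlaps the AP-1 motif TGAGTCA. The Srxn1 match began 28 bases after the start site, and the Gclm and Prdx1 matches 134 and 133 bases before it. The windows of Nqo1, Keap1 and Osgin1 and the other windows of Txnrd1 did not hold the searched core. No window was found under the symbols Gclc and Gsr. The searched core begins with TGAC, and forms with TGAG in that place were not counted. The windows of Osgin1 and Srxn1 each hold such a form, TGAGTCAGC, on the opposite strand and on the strand of the gene. Sequence outside the windows was not searched, so an element farther from a start site would be missed. A match describes the sequence only.

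The targeted gene was looked at first. Stk11 had a log2 intensity of 9.56 to 9.82 with a median of 9.64 in LKB1 livers, against 9.63, 9.47, 9.76 and 9.55 in untreated livers, and the groups overlapped (fold 1.04, 95% interval from 0.922 to 1.18, limma adjusted p = 0.930). No source used here says whether this probe can bind a plasmid transcript. Between 15374 and 16839 probes were detected per array, and 7 of 7 hepatocyte markers were kept, all but Tat (9 arrays) being detected on all 10 arrays. A clustering of the arrays by their undetected probes was cut into 2 sets, a number fixed beforehand. Set A held LKB1 replicates 1, 2 and 4 and untreated replicates 1 and 2. Set B held LKB1 replicates 5, 6 and 7 and untreated replicates 3 and 4. The mean Spearman correlation over these probes was 0.522 within the sets and 0.482 between them. Values within each set are given for the brightest probe of every member.

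None of the 9 measured members differed between LKB1 and untreated livers past an adjusted p of 0.05. The share called over all 9725 genes was 0% (limma, 0 genes), and the smallest member adjusted p was 0.751. At an unadjusted p under 0.05 there were 0 of 9 members, against 6.30% of all genes (613 genes). In 0 of 9 members did the groups separate, against 1.32% of all genes. By brightest probe 6 members had a positive and 3 a negative log2 fold change, with a median of 0.04 and a range from -0.10 to 0.33; over all genes 49.2% were positive and the median was -0.0025. With arrays scaled to equal medians the member median was -0.071 on a shift of all genes of -0.157, with 6 members above and 3 below that shift. The 95% interval lay within a 1.5-fold change either way for 8 of 9 members, all except Osgin1, as it did for 92.2% of all genes. A detection p-value near the middle of its range went with a log2 value of 4.35 to 4.37, and the lowest detected readings were 4.70 to 4.84. Values near these lie close to background, and their fold changes are compressed by the offset of 16 added before the logarithm. In bulk RNA, fewer cells of a type and less RNA per cell cannot be told apart.

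**Figure D1:**
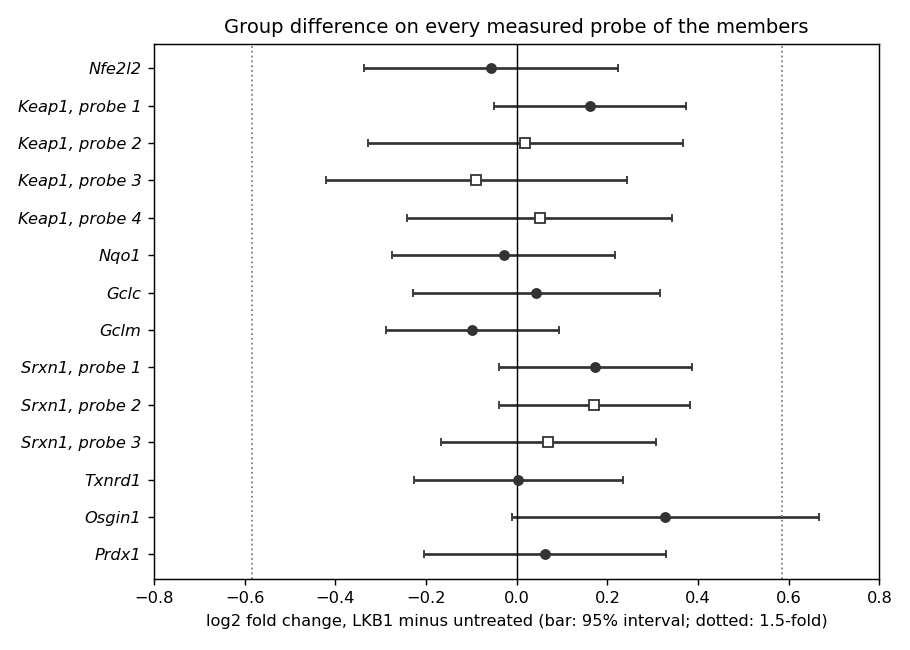
Log2 fold change (LKB1 minus untreated, x axis) of the 14 kept member probes (y axis), with filled circles for the brightest probe of a gene, open squares for its other probes, bars for the 95% interval of the limma fit and dotted lines at 1.5-fold. Every interval includes 0, and only that of Osgin1, with a log2 fold change of 0.33, passes a dotted line.

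Nfe2l2, which encodes NRF2 itself, lay at 6.14 to 6.46 with a median of 6.30 in LKB1 livers, against 6.56, 6.60, 5.90 and 6.42 in untreated livers. All 6 LKB1 values fell between the untreated extremes, and untreated replicate 3 was the lowest of the 10 mice. The group means were 6.31 ± 0.11 (SD, n = 6) in LKB1 livers and 6.37 ± 0.32 (SD, n = 4) in untreated livers. The fold was 0.962 with a 95% interval from 0.792 to 1.17 (limma adjusted p = 0.959). Without untreated replicate 3 the log2 fold change was -0.21, with an adjusted p of 0.586 (limma). Within array set A it was -0.23 and within set B 0.12. The other Nfe2l2 probe was detected in 1 of 10 livers and was not tested.

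Keap1, the adaptor that marks NRF2 for degradation, had 4 kept probes, and their log2 fold changes differed in sign. On the brightest, LKB1 livers lay at 8.71 to 9.12 with a median of 8.98, against 8.83, 8.90, 8.75 and 8.68 in untreated livers. There 3 of 6 LKB1 livers were above every untreated liver, and the log2 fold change was 0.16 ± 0.10 (SE) with an adjusted p of 0.819 (limma). Set A gave 0.02 and set B 0.30. The other kept Keap1 probes gave 0.02, -0.09 and 0.05, and the last probe was detected in 0 livers. On the third probe the arrays fell apart by set rather than by group. The 5 arrays of set B read 7.59 to 7.90, and the 5 arrays of set A read 8.07 to 8.26, while LKB1 minus untreated was -0.09 in set B and -0.08 in set A. Such a separation of the array sets was seen in 5.45% of the 16803 kept probes and in 2 of the 14 member probes. The files name no chip or date for the sets.

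**Figure D2:**
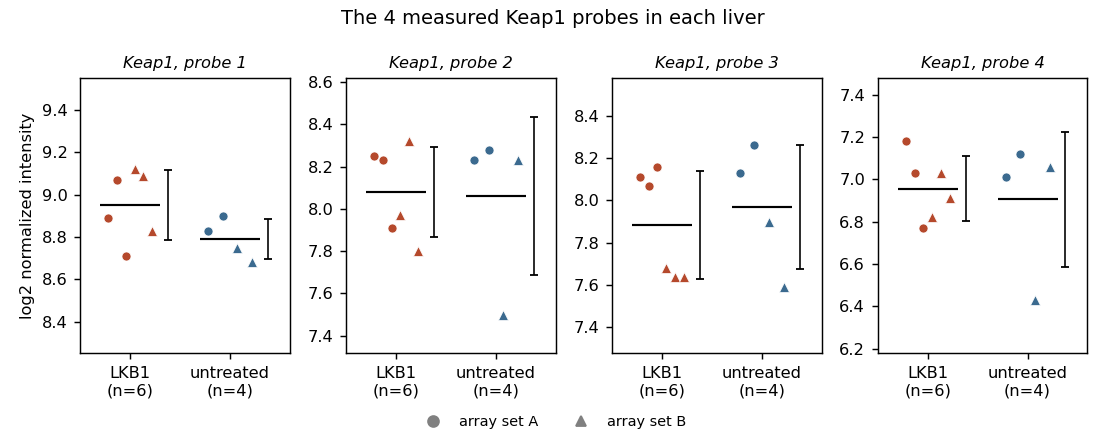
Log2 normalized intensity (y axis, a separate scale per panel) of the 4 kept Keap1 probes in each liver, LKB1 (n = 6) left and untreated (n = 4) right, with circles for array set A, triangles for set B, a line at the group mean and a bar of 1 SD. On the third probe the set B arrays (7.59 to 7.90) lie below the set A arrays (8.07 to 8.26) in both groups, and on the second and the last panel untreated replicate 3 lies alone at 7.50 and 6.43.

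Nqo1, a quinone reductase often read as the reporter of NRF2 activity, was dim in all livers. Its deposited intensity was 39.0 to 57.6 in LKB1 livers and 46.4 to 72.3 in untreated livers, where a background reading was 18.2 to 19.5. After normalization LKB1 livers lay at 5.39 to 5.87 with a median of 5.46, against 5.74, 5.54, 5.68 and 5.44 in untreated livers. LKB1 replicates 5 and 7 were above and LKB1 replicate 2 was below all untreated livers. The fold was 0.980 (95% interval from 0.826 to 1.16, limma adjusted p = 0.975). Within array set A the log2 fold change was -0.20 and within set B 0.14. The other Nqo1 probe was detected in 0 of 10 livers.

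Glutathione synthesis is represented by Gclc and Gclm, the catalytic and the modifier subunit of glutamate-cysteine ligase, the rate-limiting enzyme of the pathway. Gclm lay at 10.23 to 10.49 with a median of 10.37 in LKB1 livers, against 10.66, 10.29, 10.50 and 10.41 in untreated livers. Of the LKB1 livers 5 of 6 were below the untreated mean, by little: the log2 fold change was -0.10 ± 0.09 (SE, limma adjusted p = 0.883). The set A arrays gave -0.06 and the set B arrays -0.13. Gclc was close to background, at 4.64 to 5.29 with a median of 5.02 in LKB1 livers, against 5.17, 5.05, 4.72 and 4.93 in untreated livers. It was detected in 5 of 6 LKB1 livers and 3 of 4 untreated livers. Its log2 fold change was 0.04 ± 0.13 (SE, limma adjusted p = 0.966), with -0.25 in array set A and 0.33 in set B. The term for a difference of the group effect between the sets had an adjusted p of 0.999 (limma) for Gclc and for every other member probe.

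Srxn1 encodes sulfiredoxin, which repairs over-oxidised peroxiredoxins. Its brightest probe read 8.83 to 9.13 with a median of 9.08 in LKB1 livers, against 8.62, 8.85, 8.95 and 9.05 in untreated livers. There 4 of 6 LKB1 livers were above every untreated liver and 5 of 6 above the untreated mean. The log2 fold change was 0.17 ± 0.10 (SE), a fold of 1.13 with a 95% interval from 0.973 to 1.31 (limma adjusted p = 0.800). The second probe gave the same size, 0.17 ± 0.10 (SE), and the third, near background, 0.07 ± 0.11 (SE). On the brightest probe the set A arrays gave 0.25 and the set B arrays 0.10, and without untreated replicate 1 it was 0.09. Scaling every array to 1 median turned it to -0.029, while the median of all genes moved to -0.157, so that Srxn1 stood 0.13 above that shift.

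Txnrd1, cytosolic thioredoxin reductase, showed the smallest difference of the members, with a log2 fold change of 0.0036 ± 0.11 (SE, limma adjusted p = 0.998). It lay at 4.78 to 5.33 with a median of 5.09 in LKB1 livers, against 5.03, 5.04, 5.14 and 5.10 in untreated livers, near background and detected on all 10 arrays. The set A arrays gave 0.02 and the set B arrays -0.02. Prdx1, a peroxiredoxin that reduces hydrogen peroxide, was bright, at 12.79 to 13.28 with a median of 12.94 in LKB1 livers, against 13.20, 12.94, 12.67 and 12.85 in untreated livers. Its fold was 1.04 (95% interval from 0.868 to 1.26, limma adjusted p = 0.951). Like the third Keap1 probe it followed the array sets, with 12.67 to 12.85 in set B and 12.94 to 13.28 in set A, and within each set the log2 fold change was 0.06. Its other probe was detected in 3 of 10 livers and was not tested.

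Osgin1 had the largest difference among the members. It encodes an oxidative stress induced growth inhibitor. LKB1 livers lay at 11.14 to 12.02 with a median of 11.39, against 11.22, 11.13, 11.28 and 11.14 in untreated livers. After normalization Osgin1 was above every untreated liver in 5 of 6 LKB1 livers. LKB1 replicates 5 and 6, at 12.02 and 11.87, stood well above the rest. Before normalization the deposited intensity was 1692 to 3328 in LKB1 livers (median 2964) and 2112 to 3778 in untreated livers (median 2366). Untreated replicate 3 was the highest there. The normalized means were 11.52 ± 0.34 (SD, n = 6) in LKB1 livers and 11.19 ± 0.07 (SD, n = 4) in untreated livers. The fold was 1.25 with a 95% interval from 0.992 to 1.59, an unadjusted p of 0.0568 and an adjusted p of 0.751 (limma). Within array set A the log2 fold change was 0.10 and within set B, which holds both high livers, 0.56. With the array set as a block the adjusted p was 0.532. Scaled to equal array medians, Osgin1 was at 0.10, which stood 0.26 above the shift of all genes. Of the Kupffer cell markers, 8 of 8 measured genes had a positive log2 fold change, against 49.2% of all genes, and 0 passed the adjusted threshold. Cd5l was not detected on enough arrays. Their summed intensity was 3030 to 4299 in LKB1 livers and 2047 to 3736 in untreated livers, which overlap, and their part in the Osgin1 and Srxn1 values was not tested. Of the markers of other cell types, 5 of 7 for hepatocytes, 4 of 5 for stellate cells and 3 of 4 for sinusoidal endothelial cells were positive. For neutrophils, cholangiocytes and T and B cells it was 1 of 2 each. The Osgin1 window is printed because this gene differed most. Its 1 copy of the AP-1 motif TGAGTCA, on the opposite strand, is in capitals, 97 bases before the start site. That motif was found in 3 of the 10 member windows, those of Osgin1, Prdx1 and Srxn1, and in 5.20% of all windows. In the Osgin1 window it runs on into TGAGTCAGC, which has TGAG where the searched core has TGAC. What binds there was not tested.
Osgin1, chr8:119436897-119437196, plus strand: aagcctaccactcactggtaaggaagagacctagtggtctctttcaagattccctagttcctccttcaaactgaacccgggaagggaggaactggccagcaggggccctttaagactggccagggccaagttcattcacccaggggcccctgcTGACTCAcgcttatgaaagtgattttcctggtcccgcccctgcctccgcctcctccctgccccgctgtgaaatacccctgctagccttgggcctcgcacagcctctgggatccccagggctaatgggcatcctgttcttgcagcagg

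**Figure D3:**
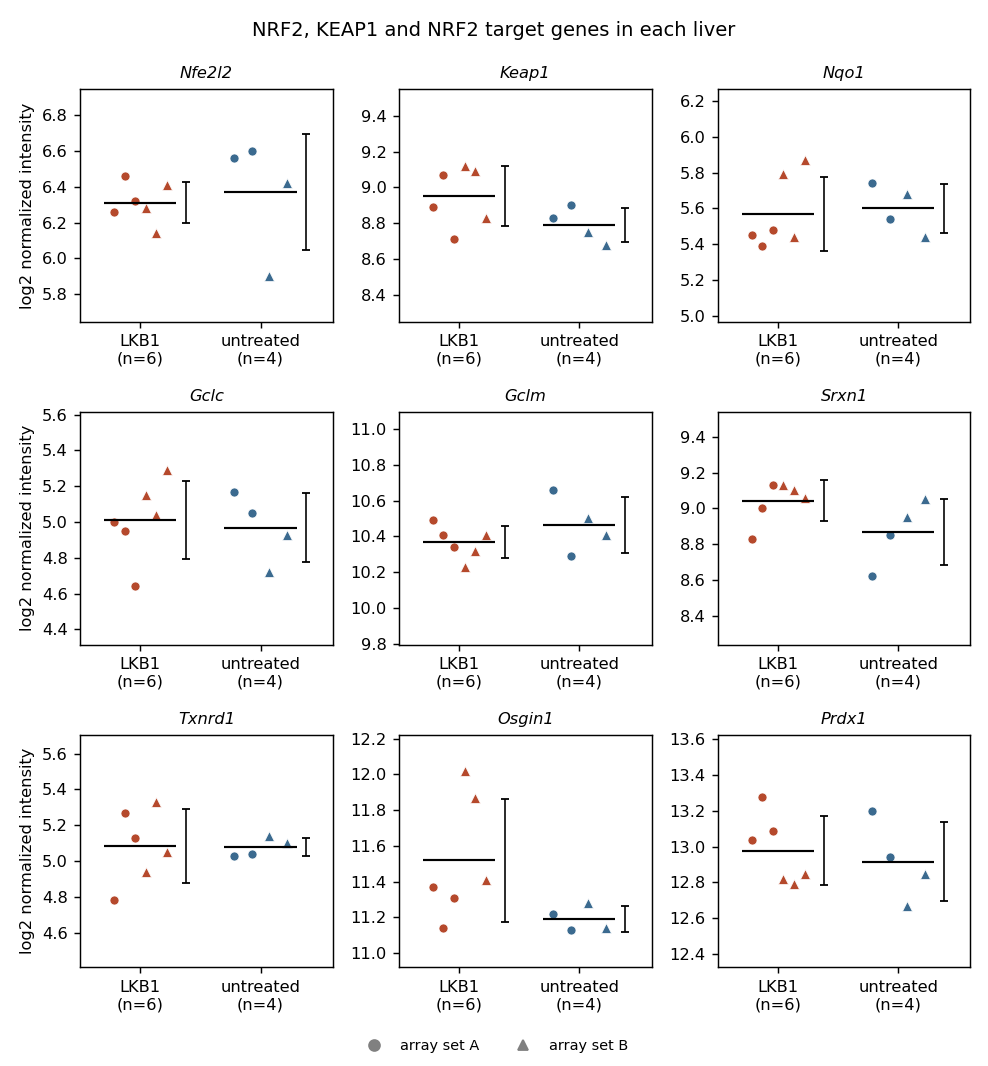
Log2 normalized intensity (y axis, a separate scale per panel) of the brightest probe of each of the 9 measured members in each liver, LKB1 (n = 6) left and untreated (n = 4) right, with circles for array set A, triangles for set B, a line at the group mean and a bar of 1 SD. The groups overlap in every panel, and in Osgin1 LKB1 replicates 5 and 6 reach 12.02 and 11.87 while all 4 untreated livers lie between 11.13 and 11.28.

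Across mice, Nqo1 was set against each of the 8 other members over the 10 livers, and 0 of the 8 relations passed a permutation p of 0.05. The relation farthest from 0 was with Gclc, at Pearson r = 0.52 (permutation p = 0.127, adjusted over the 8 relations 0.872) and Spearman rho = 0.61 (permutation p = 0.067, adjusted 0.534). Without LKB1 replicates 5 and 7, the livers farthest from the median of Nqo1, the Gclc r was 0.09. Leaving out these livers also narrows the range of Nqo1, so the drop cannot tell whether the relation rests on them. Without them the r of Nqo1 with Gclm was 0.67 (0.14 with all livers) and with Srxn1 -0.66 (-0.09 with all livers). Over all 10 livers the other 7 had r from -0.32 to 0.28, with adjusted permutation p-values of 0.872 to 0.962, and that of Nqo1 with Nfe2l2 was -0.02. With 5 arrays each, the array sets were too small for a value of their own, and after subtracting the set means the r with Gclc was 0.50.

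The wider pathway was described from 7 lists with 66 genes, of which 54 had a kept probe. Past the adjusted threshold there were 0 of 54, 19 were positive and 35 negative, and the median log2 fold change was -0.04, beside -0.0025 for all genes. Scaled to equal array medians the list medians were -0.25 to -0.20, on the shift of -0.157. At an unadjusted p under 0.05 there were 3 of 54, a rule that 6.30% of all genes met. These were Bach1, Mafg and Gsta1, each with a negative log2 fold change, as 3.10% of all genes had at that level. They are described below because they had the smallest p of their lists.

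**Figure D4:**
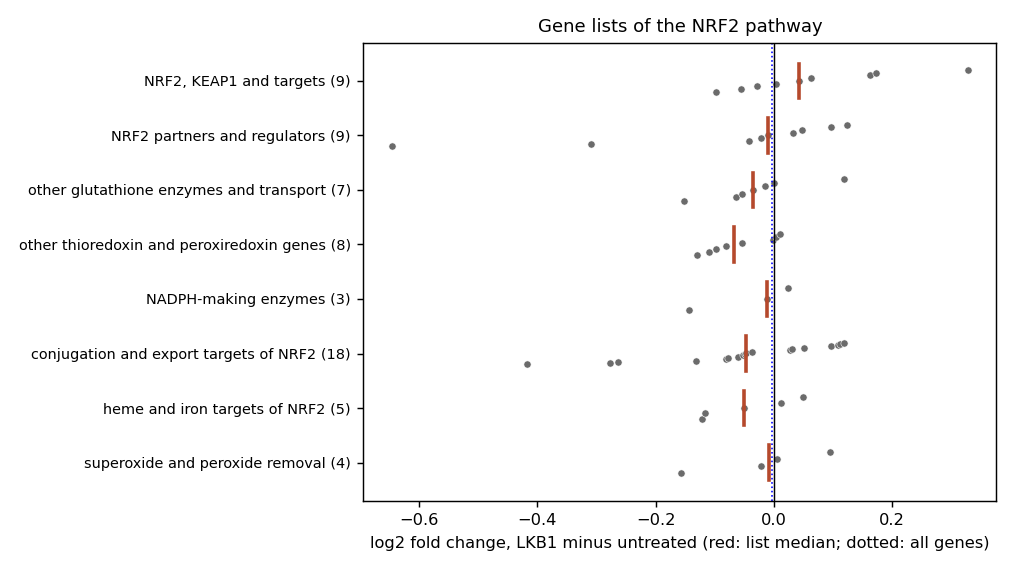
Log2 fold change (LKB1 minus untreated, x axis) of every measured gene (points, brightest probe) in the member list and 7 other lists of the pathway (y axis, number measured in brackets), with a red line at each list median and a dotted line at the median of all genes. List medians lie between -0.07 and 0.04, and Bach1 at -0.65, Gsta1 at -0.42 and Mafg at -0.31 lie farthest to the left.

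Among the partners and regulators of NRF2, 9 of 11 genes were measured, 4 positive and 5 negative. Bach1 encodes a repressor that pairs with small MAF proteins and occupies antioxidant response elements in competition with NRF2. It lay at 6.68 to 7.29 with a median of 7.20 in LKB1 livers, against 7.82, 8.36, 6.89 and 7.97 in untreated livers. All 6 LKB1 livers were below 3 of the untreated livers, but 5 of 6 were above untreated replicate 3. The fold was 0.639 (log2 fold change -0.65 ± 0.23, SE, limma adjusted p = 0.645). The set A arrays gave -0.82 and the set B arrays -0.47, and the range was -0.94 to -0.44 with 1 mouse left out. Mafg, one of the small MAF partners, lay at 8.17 to 8.56 with a median of 8.41 in LKB1 livers, against 8.82, 8.95, 8.49 and 8.53 in untreated livers. The groups overlapped, and the log2 fold change was -0.31 ± 0.12 (SE, limma adjusted p = 0.674), with -0.28 ± 0.13 (SE) on its other probe. Within the array sets, where LKB1 and untreated livers share a set, the Mafg values were -0.35 (A) and -0.27 (B). Cul3, the ligase scaffold, and Sqstm1, an autophagy adaptor that binds KEAP1, had log2 fold changes of -0.04 and 0.05.

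The conjugation and export list held 19 genes, of which 18 were measured, 7 positive and 11 negative with a median of -0.05. Gsta1, an alpha-class glutathione transferase, lay at 4.82 to 5.49 with a median of 5.14 in LKB1 livers, against 5.29, 5.95, 5.64 and 5.41 in untreated livers. In 4 of 6 LKB1 livers it was below every untreated liver. The log2 fold change was -0.42 ± 0.15 (SE, limma adjusted p = 0.645) and -0.65 ± 0.19 (SE, adjusted p = 0.517) on its other probe, which was detected on 7 of 10 arrays. The set A arrays gave -0.28 and the set B arrays -0.55 on the brighter probe. Its readings lie near background, and with an offset of 50 in place of 16 the value was -0.23. Its close relative Gsta2 was at -0.26 ± 0.17 (SE). Near-identical sequence within this family can let a probe read more than 1 transcript, which was not tested.

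**Figure D5:**
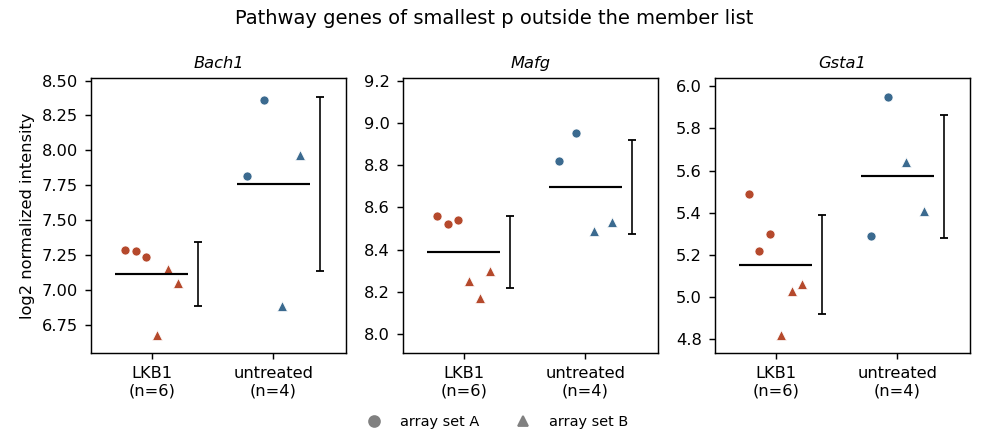
Log2 normalized intensity (y axis, a separate scale per panel) of Bach1, Mafg and Gsta1 in each liver, LKB1 (n = 6) left and untreated (n = 4) right, with circles for array set A, triangles for set B, a line at the group mean and a bar of 1 SD. In Bach1 untreated replicate 3 lies at 6.89, below 5 of the 6 LKB1 livers, while the other untreated livers lie at 7.82 to 8.36.

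In the remaining lists no gene had an unadjusted p under 0.05. Of the other glutathione genes 1 of 7 was positive, with Glrx (glutaredoxin) at -0.15 ± 0.09 (SE) and Ggct (a gamma-glutamyl cyclotransferase) at 0.12 ± 0.11 (SE). Of the other thioredoxin and peroxiredoxin genes 2 of 8 were positive, with Txnrd3 at -0.13 ± 0.08 (SE) and Prdx2 at -0.10 ± 0.08 (SE). The 3 measured NADPH-making enzymes ranged from -0.14 for Tkt, transketolase, to 0.02 for Taldo1, transaldolase. In the heme and iron list Blvra and Blvrb, which reduce biliverdin, were at -0.12 ± 0.07 and -0.12 ± 0.09 (SE), and Hmox1, the heme oxygenase that NRF2 and BACH1 both control, at -0.05 ± 0.17 (SE). The dismutases Sod2 and Sod3 were at -0.16 ± 0.13 and 0.09 ± 0.10 (SE). On the brightest probes no adjusted p in these lists was below 0.816 (limma), and on the other probes of the genes named here the lowest was 0.748, for Blvrb.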

How the data were processed

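Liver RNA of 10 mice was measured on 1 Illumina array each, so n counts arrays, taken as mice because the design text counts mice. The deposited table gives per probe and array an unnormalized linear intensity. Per the file headers it pairs each with a p-value for detection; background subtraction by the scanner is not stated. The authors' processed values, log2 by their slope near 1 against log2 intensity, have a median of 4.36 in every column. The submitters' processing notes list the package lumi. No column was left unmapped (0). The title consisting of the gene's name alone was taken as replicate 1 of its group.

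The function neqc (limma 3.58.1, R 4.3.3) was applied: normexp correction using detection p-values, offset 16, quantile normalization, log2. A probe was kept if 4 or more arrays detected it (p under 0.05). The comparison used limma's lmFit and eBayes, two-sided, with Benjamini-Hochberg adjustment over all kept probes. A gene was read from its kept probe with the highest mean, and every kept probe of a member is given. Gene symbols came from the platform annotation (34885 probes with 1 symbol, 18 with several, 10378 not listed), of which 34807 matched the RefSeq table of GRCm38.p6. The files name no build; the coordinates given are those of the RefSeq promoter windows (GRCm38.p6).

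Array sets came from clustering the 24495 probes detected on no array. Correlations used 100000 permutations. Named genes were all members, the 2 genes of smallest p of each other pathway list and Stk11; Cul3, Sqstm1 and Hmox1 were chosen with their values already seen. The members and lists were chosen with earlier results of these data known. The fit was tested on simulated data. The number of arrays limits the precision. Alternatives were another background step, offset, scaling, filter, the authors' values, array weights, blocks and leaving out each mouse.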

Additional observations from a re-analysis of the deposited data

Results flagged for a closer look

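Untreated replicate 3 stood apart on 2 of the kept Keap1 probes. On the second it read 7.50 where the other untreated livers read 8.23 to 8.28, a gap that made up 0.933 of the whole range of the group. On the dimmest of the 4 it read 6.43 against 7.01 to 7.12, a gap of 0.841 of the range. On the brightest Keap1 probe it read 8.75, within the untreated range of 8.68 to 8.90. A gap above 0.829 of the range marks a single far array in a group of 4. In all, 58 groups of readings were looked at, 2 were marked, and about 1 in 20 groups is marked by chance. Without this mouse these Keap1 probes had log2 fold changes of -0.17 and -0.11 with adjusted p-values of 0.768 and 0.831 (limma).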

How the results depend on the processing

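No member passed an adjusted p of 0.05 (limma) in any of the 21 other settings, where the lowest member adjusted p was 0.532. When arrays were scaled to equal medians, 11 genes passed, no member among them, and the median of the members was -0.071, with a shift of all genes of -0.157; below 0 were then also Keap1 (-0.036, -0.15 and -0.086 on its brightest, second and dimmest probe), Srxn1 (-0.029 and -0.0082 on its brightest and dimmest), Txnrd1 (-0.071) and Prdx1 (-0.17). Txnrd1 was at -9.0e-05 in the authors' processed values. The fit without a filter covered all 45281 probes, so its 1230 genes with an unadjusted p under 0.05 (limma) are not out of 9725. With an offset of 50 that level was met by 1 member (Osgin1) and by 643 of all 9725 genes. It was met by 1 member (again Osgin1) and 798 genes with the array set as a block. Within set B it was met by 2 members (Gclc and Osgin1) and by 494 genes. Within set B the median of the members was 0.12, or 0.13 above all genes, and Nfe2l2 (0.12), Nqo1 (0.14), the dimmest Srxn1 probe (-0.028) and Txnrd1 (-0.016) changed sign. Within set A Gclc was -0.25 and the second and the dimmest Keap1 probes -0.12 and -0.072. With array weights Gclc was at -0.014 and the second Keap1 probe at -0.012. The cause of these changes was not tested.

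The numbers 1, 2 and 4 occur in both groups, but deviations of same-numbered livers correlated at 0.15, 0.24 and -0.17, and 2 of 6 livers matched their own number best, so they were not taken as pairs. With the replicate number as a block 0 genes were called and 576 had an unadjusted p under 0.05; Keap1 was at -0.12, 0.12 and -0.069 on its 3 dimmer probes, in order of brightness, Gclc at -0.19, Osgin1 at 0.11 (adjusted p = 0.931, limma), Gclm at -0.041 and Gsta1 at -0.21. For Nqo1, r with Nfe2l2 was 0.24 and with Prdx1 0.0042 after subtracting set means, and with Keap1 0.017 after subtracting group means.

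With 1 mouse left out the genes called numbered 0 to 1 (1 without LKB1 replicate 2), genes at an unadjusted p under 0.05 numbered 372 to 763 (372 without untreated replicate 2), and members at that level 0 to 2. Log2 fold changes ranged from -0.21 to 0.020 for Nfe2l2, -0.17 to 0.092, -0.21 to 0.0065 and -0.11 to 0.12 for those 3 Keap1 probes, -0.089 to 0.017 for Nqo1, -0.040 to 0.12 for Gclc, -0.16 (without untreated replicate 2) to -0.033 (without untreated replicate 1) for Gclm, -0.022 to 0.15 for the dimmest Srxn1 probe, -0.045 to 0.064 for Txnrd1 and -0.020 to 0.16 for Prdx1. The brightest Keap1 probe ranged from 0.12 to 0.21, the brightest Srxn1 probe from 0.090 to 0.23 and the second from 0.13 to 0.22. Osgin1 ranged from 0.23 to 0.40. Signal close to background limits Gclc, Nqo1, Txnrd1, the dimmest Srxn1 probe and Gsta1.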

Other observations

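Genes with clone, accession-like or predicted names were passed over in this ranking. Of the rest of the 9725 genes, those whose log2 intensity followed Nfe2l2 most closely over the 10 livers were Lgr5 (Pearson r = 0.966), Atp6v1g2 (0.945) and Mbnl1 (0.937). For Nqo1 they were Ndufb2 (0.893), Ppbp (0.873) and Mgp (0.866). These are the highest of many correlations over 10 livers, described without a test, and the livers share the array sets. No other member was among them: the member nearest to Nfe2l2 was Prdx1, at r = 0.64.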
